A study of Mus musculus with 4 samples.

Results

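The collagen genes of MLO-Y4 cells were examined under mechanical loading. All rows of the gene count table with a name made of Col, a number, a and a number were taken, which gave 44 genes of 55450. They comprised 11 fibrillar collagens, 6 type IV collagens, called the basement membrane class here, 9 FACIT collagens (fibril-associated collagens with interrupted triple helices) and 18 other collagens. MLO-Y4 is an osteocyte-like line from mouse long bone, wild type in the labels, and each library came from this single line. The 2 unloaded cultures stood for 12 h in the incubator of the loading system on ordinary 6-well plates. The 2 loaded cultures were stretched equally in all directions for 12 h at 0.5 Hz and 20% strain on a silicone membrane that carried type I collagen. Stretch therefore cannot be told apart from the membrane and its collagen coat in any comparison below. RNA was depleted of ribosomal RNA, and the number of a replicate is the only label that links libraries of different groups. Nothing in the labels says that the cultures of a group were grown separately, so p-values measure the spread between these libraries, which may be technical.

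Collagens are secreted proteins of 3 chains wound into a triple helix, and the helix needs glycine as the first residue of each residue triplet. Fibrillar collagens form the ropes of bone, skin and tendon, and type I, made from *Col1a1* and *Col1a2*, is the main protein of bone matrix. Type IV collagen forms the mesh of basement membranes, FACIT collagens sit on the surface of fibrils, and the other collagens form beaded filaments, anchoring fibrils, hexagonal nets or membrane-bound chains. Osteocytes are bone cells buried in the type I collagen matrix that their osteoblast precursors laid down.

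The glycine repeat can be read from the coding sequence, because all glycine codons begin with GG. The longest coding sequence of each gene in the GENCODE M21 annotation (GRCm38) was scanned for unbroken runs of at least 5 codon triplets that begin with a glycine codon. In the fibrillar collagens the longest run held between 216 and 344 triplets, with a median of 338, and no fibrillar gene had more than 3 runs. In the basement membrane genes the longest run held 39 to 66 triplets, and the repeat was split into 22 to 27 runs. The FACIT genes ranged from 32 to 113 triplets in the longest run and from 2 to 21 runs. Shown here is the end of the longest run in 4 genes on which the results below turn, as 24 codons each in the 5′ to 3′ direction, with glycine codons in capitals. The stretch covers codons 1164 to 1187 of *Col1a1*, 1471 to 1494 of *Col5a3*, 957 to 980 of *Col4a2* and 1144 to 1167 of *Col16a1*.
Col1a1: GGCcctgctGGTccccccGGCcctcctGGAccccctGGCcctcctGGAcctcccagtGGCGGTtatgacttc
Col5a3: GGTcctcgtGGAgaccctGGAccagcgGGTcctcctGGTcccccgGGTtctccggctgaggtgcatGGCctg
Col4a2: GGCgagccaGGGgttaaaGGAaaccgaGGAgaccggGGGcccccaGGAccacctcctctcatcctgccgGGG
Col16a1: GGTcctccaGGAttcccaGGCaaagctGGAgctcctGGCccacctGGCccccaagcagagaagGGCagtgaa
In *Col1a1* and *Col5a3* the stretch marks the end of the main helix, where a run of 338 and 337 triplets closes. In *Col4a2* and *Col16a1* it marks an interruption within the repeat, after runs of 66 and 52 triplets, and the repeat resumes downstream. *Col16a1* had 21 runs, the most of any FACIT gene, and 62.1% of its codons lay in runs, against 8.12% in *Col12a1*.

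**Figure D1:**
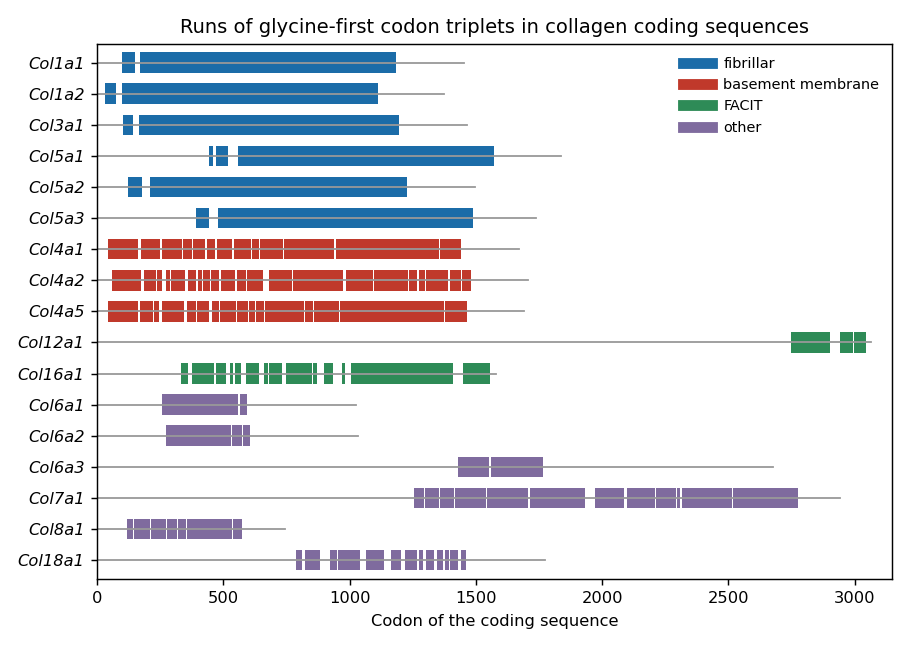
Coding sequences of 17 collagen genes, drawn to scale along the codon number, with each run of at least 5 glycine-first triplets as a block and the remaining codons as a grey line. The fibrillar genes show a long block of 337 to 344 triplets after shorter ones, *Col4a1*, *Col4a2* and *Col4a5* a repeat broken many times, and *Col12a1* a short repeat near the end of a coding sequence of 3065 codons.

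Total counts ranged from 28941994 to 32185693 per library. Levels are given as CPM, counts scaled to a shared library size with the TMM factors of edgeR, and 3 counts correspond to 0.093 to 0.103 CPM. This floor covers counting error only, whereas the 95% intervals of fold changes also include the variation between libraries estimated by edgeR. Loading was tested with edgeR's quasi-likelihood test on 16269 genes, with Benjamini-Hochberg adjustment over all of them and a threshold of 0.01. At that threshold 0.0123% of the tested genes were called higher and 0.0861% lower in loaded cells. Of the osteocyte markers, *Pdpn*, *Phex* and *Gja1* were above 10 CPM in every library, while *Dmp1*, *Sost*, *Fgf23* and *Mepe* stayed under 0.5 CPM, and the 7 genes summed to 687 and 689 CPM unloaded and 848 and 770 CPM loaded. Of the 6 osteoblast markers, *Spp1* and *Runx2* were above 10 CPM and *Bglap*, *Alpl*, *Ibsp* and *Sp7* under 1 CPM, and the sum was 459 and 454 CPM unloaded and 330 and 355 CPM loaded. The osteoblast sum followed *Spp1*, with 409 and 405 CPM unloaded and 273 and 301 CPM loaded. *Runx2* went the other way, from 49.2 and 48.5 to 56.4 and 53.2 CPM. *Pdpn* had 143 and 151 CPM unloaded and 215 and 228 CPM loaded, and *Phex* 43.7 and 43.8, then 47.5 and 55.8 CPM. The loaded values of *Gja1*, 584 and 485 CPM, lay on both sides of the unloaded 500 and 494 CPM. The part of these marker differences in the collagen results was not tested. Markers of endothelial, muscle, fat and epithelial cells summed to at most 9.16 CPM per list, and of the chondrocyte genes *Acan* had no count, *Col2a1* stayed under 1 CPM and *Sox9* lay between 17.2 and 20.6 CPM.

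Collagen genes took 0.504% and 0.500% of all counts in unloaded cells and 0.454% and 0.468% in loaded cells. The summed level was 5020 and 4956 CPM without loading and 4531 and 4767 CPM with it, so the groups did not overlap. A comparison of 2 with 2 libraries cannot go below an exact permutation p of 0.333, two-sided, and this is the value here. In bulk RNA, fewer cells of a type and less RNA per cell cannot be told apart.

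Most collagen message came from few genes. Per kilobase of exon, *Col1a1* (150 CPM per kb, mean of the 4 libraries) and *Col1a2* (113) ranked highest, followed by *Col18a1* (66.3), *Col5a2* (44.6), *Col3a1* (40.9), *Col8a1* (39.9), *Col5a1* (38.7) and *Col6a1* (20.7). These 8 genes made up between 90.6% and 91.2% of the collagen level per exon length in each library. In this order the library values of *Col5a2* and *Col3a1* overlapped, as did those of *Col3a1* and *Col8a1* and those of *Col8a1* and *Col5a1*, all between 37.4 and 46.5 CPM per kb. *Col16a1* came next after *Col6a1*, at a mean of 20.0 CPM per kb. Its library values (16.5 to 23.4) overlapped with those of *Col6a1* (17.8 to 23.9), so the last place among the 8 is not settled. The order depends on the length used, since the annotated exons of *Col1a2* add up to 12426 bp and its coding sequence to 4116 bp. Per kilobase of coding sequence *Col1a2* stood at 341, *Col1a1* at 225 and *Col8a1* at 140, and *Col18a1*, at 87.4, ranked sixth. Fibrillar genes held 69.8% to 71.8% of the collagen level per exon length, and the 6 type IV genes 0.275% to 0.412%.

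At the other end, 8 genes had no count in any library, which allows up to 0.103 CPM in each. These were *Col11a1*, *Col9a1*, *Col9a2*, *Col6a6*, *Col8a2*, *Col13a1*, *Col25a1* and *Col26a1*, among them chains of cartilage fibrils and of membrane-bound collagens. A further 7 genes, *Col4a3*, *Col4a4*, *Col4a6*, *Col19a1*, *Col10a1*, *Col23a1* and *Col28a1*, had at most 21 counts in a library and did not pass the filter on low counts. The other 29 genes were tested, 3 of which (*Col2a1*, *Col14a1* and *Col24a1*) had under 10 counts in some library.

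**Figure D2:**
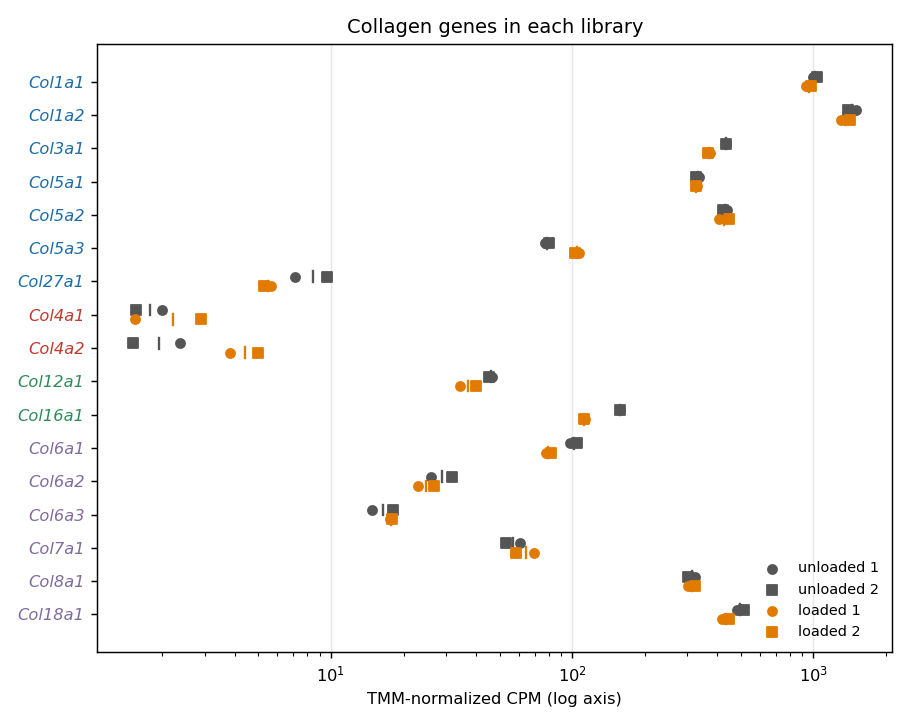
TMM-normalized CPM on a log axis of the 16 collagen genes named with full statistics and of *Col4a1*, in each of the 4 libraries, with a vertical tick at each group mean and gene names coloured by class. Unloaded and loaded points lie apart for *Col16a1*, *Col5a3*, *Col3a1*, *Col6a1* and *Col4a2*, and overlap for *Col5a1*, *Col5a2* and *Col8a1*.

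In the test of loading, 0 of the 29 collagen genes passed an edgeR adjusted p of 0.01 in either direction. Without adjustment, 2 genes were higher and 6 lower at p under 0.05, where 6.88% of all tested genes were higher and 7.46% lower. DESeq2's Wald test gave an adjusted p for 20 of the 29 collagen genes and for 12484 genes in all. At its own adjusted p of 0.01 it called *Col5a3* higher and *Col16a1* lower. Of the 12484 genes it called 1.36% higher and 1.55% lower. limma-voom called none at 0.01. The log2 fold change of loaded over unloaded cells was negative for 19 of the 29 genes, or 65.5%, against 51.5% of all tested genes, and positive for 10, against 48.5%. Its median was -0.10 over the collagen genes and -0.01 over all tested genes. In 12 genes (41.4%) both loaded libraries lay below both unloaded libraries, against 24.5% of all genes, and in 4 genes both lay above, against 22.1%. These shares describe the genes and were not tested as a set.

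Because genes of high level are measured more precisely, the 14 collagen genes with a mean of at least 10 CPM were also set beside all genes of that level. Of the 14, 5 were lower at an unadjusted p under 0.05 (35.7%), where 9.17% of genes of that level were, and 1 was higher, where 9.63% were. The sign was negative for 10 of the 14 and for 50.5% of all genes of that level, and positive for 4, against 49.5%. Both loaded libraries lay below both unloaded libraries in 6 of the 14, against 26.0% of genes of that level, and above them in 1, against 25.1%.

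*Col16a1* (ENSMUSG00000040690.15, GRCm38 chromosome 4, 130047840 to 130099283), the chain of a FACIT collagen found near small fibrils and at cell attachment sites, had the smallest p of all collagen genes. Its level was 158 and 157 CPM in unloaded cells and 113 and 112 CPM in loaded cells. The groups did not overlap, at means of 158 ± 0.764 and 112 ± 0.733 CPM (SD, n = 2 each), and an SD of 2 libraries is itself an imprecise estimate of the spread. The log2 fold change was -0.49 (standard error 0.0662, 95% interval -0.65 to -0.33), a difference of -28.9%. The edgeR adjusted p = 0.0388 did not pass 0.01, the DESeq2 adjusted p was 4.57e-05, and the limma-voom adjusted p was 0.0329. At an adjusted p under 0.05, *Col16a1* was the only collagen gene that edgeR called, where 0.565% of all genes were called lower and 0.338% higher. Leaving out any 1 library kept the estimate between -0.50 and -0.48, but the edgeR adjusted p was then 0.102 to 0.136. It was 0.0764 without the filter on low counts, so the call at 0.05 was lost in these settings.

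*Col5a3* (ENSMUSG00000004098.7, GRCm38 chromosome 9, 20770050 to 20815067) encodes the third chain of type V collagen, a minor fibrillar collagen that helps set fibril diameter. It had 77.2 and 80.2 CPM without loading and 107 and 102 CPM with loading, and the groups did not overlap. The log2 fold change was 0.41 (standard error 0.0798, 95% interval 0.22 to 0.61, edgeR adjusted p = 0.101, DESeq2 adjusted p = 0.00514). For the other type V chains the groups overlapped. *Col5a1* had 335 and 327 CPM unloaded and 329 and 324 CPM loaded, with a log2 fold change of -0.02 and a 95% interval of -0.16 to 0.12. *Col5a2* had 436 and 423 CPM unloaded and 405 and 446 CPM loaded, with a log2 fold change of -0.01 and a 95% interval of -0.18 to 0.15. Within each library, the ratio of *Col5a3* to *Col5a1* per exon length was 0.287 and 0.306 in unloaded cells and 0.406 and 0.393 in loaded cells, a log2 change of 0.43. For *Col5a1* to *Col5a2* it was 0.868 and 0.873, then 0.918 and 0.822, and the groups overlapped.

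Smaller estimates were obtained for the type I chains. *Col1a1* had 993 and 1032 CPM unloaded and 931 and 976 CPM loaded, with a log2 fold change of -0.09 (95% interval -0.22 to 0.05, edgeR adjusted p = 0.534). *Col1a2* had 1504 and 1396 CPM unloaded and 1296 and 1413 CPM loaded, with a log2 fold change of -0.10 (95% interval -0.26 to 0.06, edgeR adjusted p = 0.560). The loaded libraries lay below the unloaded ones for *Col1a1* and overlapped with them for *Col1a2*, and both intervals reach to -0.22 or below. The ratio of *Col1a1* to *Col1a2* per exon length was 1.25 and 1.4 in unloaded and 1.36 and 1.31 in loaded cells, so the groups overlapped.

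*Col3a1*, the chain of type III collagen that co-assembles with type I in soft tissues, had 432 and 433 CPM unloaded and 374 and 367 CPM loaded. The log2 fold change was -0.22 (standard error 0.0548, 95% interval -0.36 to -0.09), and the edgeR adjusted p = 0.152 did not pass. *Col3a1* lies 24614 bp from *Col5a2* on chromosome 1, in a convergent arrangement, and its neighbour had the value of -0.01 given above. *Col27a1*, a fibrillar chain of cartilage, had 7.13 and 9.67 CPM unloaded and 5.64 and 5.30 CPM loaded, with a log2 fold change of -0.62 (95% interval -1.15 to -0.08, edgeR adjusted p = 0.289). The 2 unloaded libraries of *Col27a1* differed from each other by more than the loaded ones did.

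**Figure D3:**
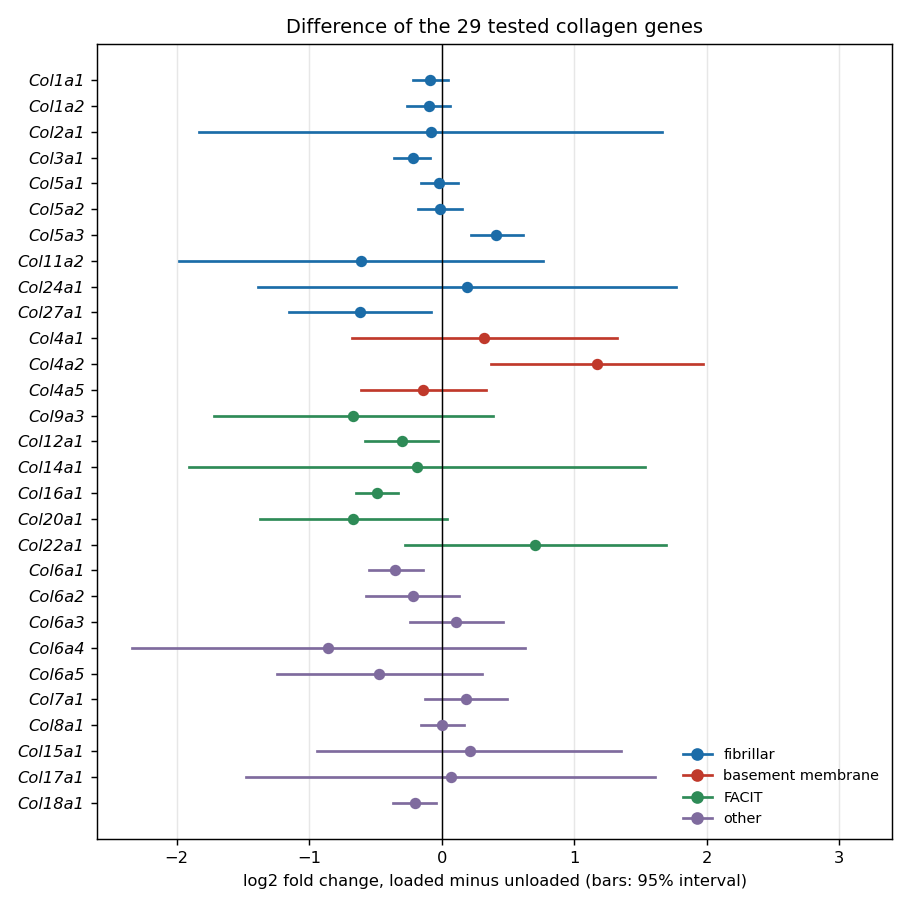
Log2 fold change of loaded over unloaded cells for the 29 tested collagen genes, with 95% intervals from edgeR's quasi-likelihood fit, coloured by class. *Col16a1*, *Col3a1* and *Col6a1* lie to the left of 0 and *Col5a3* and *Col4a2* to the right with intervals that leave out 0, the intervals of *Col27a1*, *Col12a1* and *Col18a1* end close to 0, and low genes such as *Col2a1* and *Col6a4* have intervals over 2 log2 units wide.

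Among the basement membrane genes, *Col4a1* and *Col4a2* encode the chains of the common type IV mesh. *Col4a2* had 69 and 46 counts without loading and 123 and 148 counts with it, or 2.38, 1.52, 3.81 and 4.97 CPM. Both loaded libraries were above both unloaded ones. The log2 fold change was 1.17 (standard error 0.329, 95% interval 0.37 to 1.97), with an edgeR adjusted p of 0.190 and a DESeq2 adjusted p of 0.185. Leaving out each library in turn gave between 0.88 and 1.54. *Col4a1* had 58 and 47 counts unloaded and 50 and 86 counts loaded, so the groups overlapped, and its log2 fold change was 0.32 with a 95% interval of -0.68 to 1.32. *Col4a5*, a chain of the mesh of kidney and muscle basement membranes, ranked above both per exon length and had 7.61 and 7.62 CPM unloaded and 6.23 and 7.58 CPM loaded (log2 fold change -0.14, 95% interval -0.61 to 0.33). Its groups were apart by less than the loaded libraries differed from each other. The ratio of *Col4a1* to *Col4a2* per exon length was 0.745 and 0.906 in unloaded and 0.360 and 0.515 in loaded cells, so the groups did not overlap.

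*Col4a1* and *Col4a2* lie head to head on chromosome 8, and their annotated first exons overlap by 22 bp on opposite strands. Their RefSeq promoter windows (GRCm38.p6, from 250 bases before to 50 bases after the start) overlap from position 11312777 to 11312854. Promoter windows of *Col4a2*, *Col5a3* and *Col16a1*, the genes with the smallest unadjusted p of the basement membrane, fibrillar and FACIT classes, are given in the direction of transcription. Each was searched on both strands for the TATA box (TATAAA), the CCAAT box (CCAAT), the GC box (GGGCGG), the AP-1 site (TGANTCA), the antioxidant response element bound by NRF2 (TGACNNNGC) and the TEAD site (GGAATG). Capitals mark the matches. The AP-1 and antioxidant letters can overlap within a site.
Col4a2, chr8:11312555-11312854, plus strand: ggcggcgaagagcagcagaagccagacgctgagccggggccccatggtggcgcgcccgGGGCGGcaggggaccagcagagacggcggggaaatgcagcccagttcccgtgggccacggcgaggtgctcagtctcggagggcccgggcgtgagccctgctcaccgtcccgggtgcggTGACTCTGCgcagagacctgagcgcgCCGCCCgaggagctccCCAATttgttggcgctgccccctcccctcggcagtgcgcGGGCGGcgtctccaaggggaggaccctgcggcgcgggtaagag
Col5a3, chr9:20815018-20815317, minus strand: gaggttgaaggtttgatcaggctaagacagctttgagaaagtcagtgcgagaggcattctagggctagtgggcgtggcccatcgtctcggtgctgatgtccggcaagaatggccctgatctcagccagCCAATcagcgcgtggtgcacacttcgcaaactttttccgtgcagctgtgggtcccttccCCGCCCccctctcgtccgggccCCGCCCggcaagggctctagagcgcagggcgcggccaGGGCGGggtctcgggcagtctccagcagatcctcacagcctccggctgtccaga
Col16a1, chr4:130047590-130047889, plus strand: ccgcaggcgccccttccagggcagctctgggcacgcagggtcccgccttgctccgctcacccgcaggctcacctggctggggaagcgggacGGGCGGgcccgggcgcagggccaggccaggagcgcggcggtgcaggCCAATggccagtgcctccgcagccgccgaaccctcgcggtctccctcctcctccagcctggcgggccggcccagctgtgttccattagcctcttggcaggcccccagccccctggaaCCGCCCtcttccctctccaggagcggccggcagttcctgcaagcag
The windows of *Col4a2* and *Col5a3* each held 3 GC boxes and 1 CCAAT box, and that of *Col16a1* held 2 GC boxes and 1 CCAAT box. *Col4a2* held 1 match to the antioxidant response element, TGACTCTGC, which begins 74 bases before the start. Matches to this element were also in windows of *Col6a2* (log2 fold change -0.22), *Col6a5* (-0.47), *Col7a1* (0.18) and *Col24a1* (0.19). The windows of *Col9a2* and *Col13a1*, genes without counts, held it as well. No TATA box, AP-1 or TEAD letters were in these 3 windows. No window is printed for the class of other collagens. Its gene with the smallest unadjusted p was *Col6a1* (log2 fold change -0.35). The window of *Col6a1* held the AP-1 letters TGACTCA, the only AP-1 match in any collagen window, so their absence above depends on which classes are shown. RefSeq windows were found for 35 of the 44 genes, 38 windows in all. A GC box was in 60.5% of them, against 35.7% of all 32851 windows (median GC content 59.8% and 52.7%). The antioxidant letters were in 7 of the 38 windows (18.4%), against 12.4% of all. The remaining motifs were less frequent than over all windows. The CCAAT box was in 34.2% against 37.4%, and the TATA box in 13.2% against 13.6%. TEAD letters were in 13.2% against 14.7%, and AP-1 letters in 2.63% against 7.81%. A match is a description of letters and not a bound site.

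The other FACIT genes ranked below *Col16a1* per exon length. *Col12a1*, a large chain of type XII collagen that links fibrils, had 46.6 and 45.1 CPM unloaded and 34.2 and 40.1 CPM loaded. Its log2 fold change was -0.30 (standard error 0.113, 95% interval -0.58 to -0.03), with an edgeR adjusted p of 0.309. *Col20a1* had 4.55 and 6.86 CPM unloaded and 4.03 and 3.15 CPM loaded (log2 fold change -0.67, 95% interval -1.37 to 0.04). *Col9a3* had 56 counts or fewer in every library, and 6.07% of its exon length overlaps *Tcfl5* on the other strand, so reads in that part cannot be told apart without strand. *Col22a1*, a chain of tissue junctions, had 0.895 and 1.09 CPM unloaded and 1.86 and 1.38 CPM loaded, with a log2 fold change of 0.70 and a 95% interval of -0.28 to 1.69. Of the 6 FACIT genes tested, 5 had a negative log2 fold change, against 51.5% of all tested genes. The 95% intervals of *Col9a3* (-1.72 to 0.39), *Col14a1* (-1.91 to 1.53) and *Col20a1* included 0. *Col21a1*, on the FACIT list, was not among the gene names of the deposited counts.

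Type VI collagen forms beaded filaments around cells from 3 chains. *Col6a1* had 97.9 and 105 CPM unloaded and 78.2 and 81.4 CPM loaded, with groups that did not overlap. Its log2 fold change was -0.35 (standard error 0.0831, 95% interval -0.55 to -0.14, edgeR adjusted p = 0.148, DESeq2 adjusted p = 0.0486). *Col6a2* had 26.0 and 31.9 CPM unloaded and 22.9 and 26.7 CPM loaded (log2 fold change -0.22, 95% interval -0.57 to 0.13). *Col6a3* had 14.9 and 18.1 CPM unloaded and 17.6 and 17.9 CPM loaded (log2 fold change 0.11, 95% interval -0.24 to 0.46). The ratio of *Col6a3* to *Col6a1* per exon length was 0.0556 and 0.0630 in unloaded and 0.0825 and 0.0806 in loaded cells, a log2 change of 0.46. The ratio of *Col6a1* to *Col6a2* was 7.15 and 6.25, then 6.48 and 5.78, and overlapped. *Col6a4* and *Col6a5*, chains that can stand in for the third chain, stayed under 2.5 CPM.

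**Figure D4:**
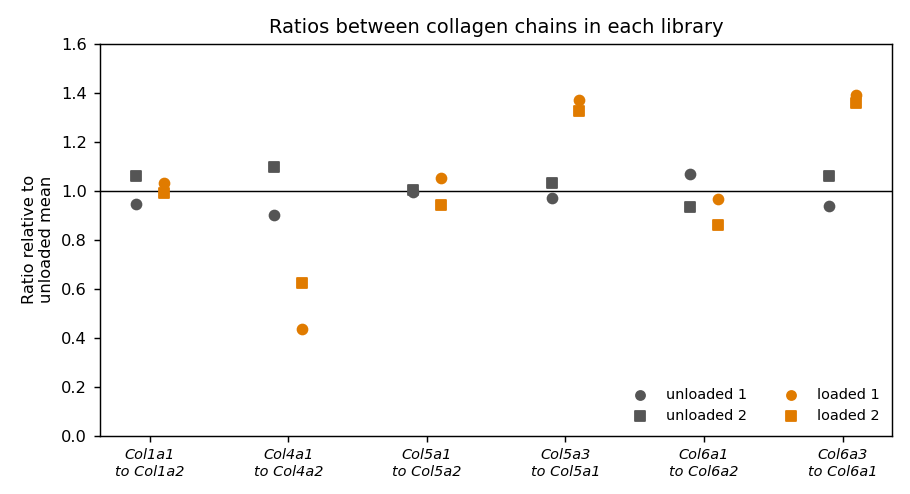
Ratio of 2 collagen chains per exon length in each library, divided by the unloaded mean of that ratio, for 6 chain pairs. Loaded points lie above the unloaded points for *Col5a3* to *Col5a1* and *Col6a3* to *Col6a1*, below them for *Col4a1* to *Col4a2*, and among them or nearby for the other pairs.

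*Col18a1* encodes a collagen that carries heparan sulfate, is also found in basement membranes and is the source of endostatin, and it was grouped with the other collagens. It had 480 and 516 CPM unloaded and 418 and 447 CPM loaded, which did not overlap. The log2 fold change was -0.20 (standard error 0.0669, 95% interval -0.37 to -0.04, edgeR adjusted p = 0.255). *Col18a1* lies within 428547 bp of *Col6a1* and *Col6a2* on chromosome 10 on the same strand, and the log2 fold changes of the 3 genes were -0.20, -0.35 and -0.22. *Col8a1*, whose chain forms hexagonal nets, had 323 and 302 CPM unloaded and 303 and 322 CPM loaded, which overlapped. Its log2 fold change was 0.00 with a 95% interval of -0.16 to 0.17. *Col7a1*, the chain of anchoring fibrils, had 60.6 and 53.0 CPM unloaded and 69.8 and 58.6 CPM loaded, and the groups overlapped (log2 fold change 0.18, 95% interval -0.13 to 0.49). *Col15a1* and *Col17a1* were at 1.78 CPM or less in every library.

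Annotated exons of *Col16a1*, *Col5a3*, *Col6a1*, *Col12a1*, *Col18a1*, *Col1a1* and *Col1a2* share no base with another gene. *Col3a1* shares 1.44% of its exon length with a same-strand miRNA gene, and *Col5a1* shares 1.17% and 1.33% with noncoding genes of the opposite strand.

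Genes that modify, fold, cut, cross-link, bind or degrade collagen were taken from 8 lists with 85 genes in all, of which 69 were tested. None passed an edgeR adjusted p of 0.01. Without adjustment 24 were lower (34.8%) and 7 higher at p under 0.05, beside 7.46% and 6.88% of all tested genes. Among all genes of at least 10 CPM, a level that many list genes pass, 9.17% were lower and 9.63% higher. The lists were not split by level. At an adjusted p under 0.05 edgeR called 3 lower, *Mmp9*, *Tgm2* and *Loxl3*, and none higher, beside 0.565% and 0.338% of all tested genes. DESeq2, which gave an adjusted p for 61 of the 69 genes, called 7 lower at 0.01, adding *Mmp13*, *Pdia4*, *Bgn* and *Hspg2*. It called none higher, beside 1.55% lower and 1.36% higher of all genes to which it gave an adjusted p. The edgeR calls at 0.05 did not hold in every setting. Without the filter on low counts the adjusted p was 0.0654 for *Tgm2* and 0.0736 for *Loxl3*. With a library left out it lay between 0.0404 and 0.124 for *Tgm2*, between 0.0556 and 0.138 for *Loxl3* and between 0.0127 and 0.0674 for *Mmp9*, highest in each case without loaded replicate 2. The median log2 fold change over the 69 genes was -0.11.

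The enzymes that hydroxylate and glycosylate collagen chains were negative in 9 of 13 tested genes (69.2%), against 51.5% of all tested genes. The median log2 fold change was -0.18. The prolyl 4-hydroxylase makes the hydroxyproline that keeps the helix stable at body temperature. All 4 of its subunit genes were lower at an unadjusted p under 0.05, where 7.46% of all tested genes were. Among genes of at least 10 CPM that share was 9.17%. The smallest edgeR adjusted p of the 4 genes was 0.141, above the threshold of 0.01. *P4ha2* had 82.8 and 78.7 CPM unloaded and 60.8 and 63.2 CPM loaded (log2 fold change -0.38, edgeR adjusted p = 0.141). *P4ha3* had 8.54 and 8.55 CPM unloaded and 4.74 and 5.54 CPM loaded (-0.73, adjusted p = 0.169). *P4hb* had 1358 and 1291 CPM unloaded and 1107 and 1173 CPM loaded (-0.22, adjusted p = 0.171). For *P4ha1* the value was -0.18 (edgeR adjusted p = 0.289), and the lysyl hydroxylase *Plod1* and the prolyl isomerase *Ppib* each had -0.24. *P3h1*, a prolyl 3-hydroxylase that works in a complex with the products of *Crtap* and *Ppib*, had -0.20, while *Crtap*, *P3h2*, *P3h4* and the lysyl hydroxylase *Plod3* had positive values of at most 0.12, and apart from *Ppib* none of these passed an unadjusted p of 0.05.

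Among folding and export genes, *Serpinh1*, the collagen chaperone HSP47, had 448 and 406 CPM unloaded and 386 and 419 CPM loaded, and the groups overlapped. *Pdia4*, a disulfide isomerase, had 234 and 237 CPM unloaded and 165 and 185 CPM loaded (log2 fold change -0.43, edgeR adjusted p = 0.0846, DESeq2 adjusted p = 0.000501). *Pdia3* (-0.22) and *Creb3l1* (-0.33), a transcription factor of the secretory pathway in osteoblasts, were lower and *Mia2* (0.18) higher at an unadjusted p under 0.05. Of the genes that cut propeptides, *Bmp1* was level at 67.3 and 71.5 CPM unloaded and 72.2 and 66.9 CPM loaded. *Pcolce*, which enhances that cut, had 186 and 204 CPM unloaded and 155 and 159 CPM loaded (-0.31, adjusted p = 0.143). The procollagen N-proteinases *Adamts14* (-0.62) and *Adamts2* (-0.58) were also lower at an unadjusted p under 0.05.

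The cross-linking genes lay on both sides of 0. *Lox*, the main lysyl oxidase, had 1330 and 1267 CPM unloaded and 1473 and 1635 CPM loaded (log2 fold change 0.26, edgeR adjusted p = 0.164, DESeq2 adjusted p = 0.0213). *Loxl3* had 126 and 137 CPM unloaded and 88.5 and 82.5 CPM loaded (-0.62, edgeR adjusted p = 0.0393, DESeq2 adjusted p = 1.85e-06). *Tgm2*, a transglutaminase, had 38.1 and 39.9 CPM unloaded and 21.8 and 21.2 CPM loaded (-0.86, edgeR adjusted p = 0.0287, DESeq2 adjusted p = 1.91e-05). *Loxl4* was level, at -0.04.

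Of the collagen receptors, *Ddr2* (799 to 883 CPM) and *Itgb1* (715 to 845 CPM) had groups that overlapped, with log2 fold changes of -0.04 and 0.11. The collagen-binding integrin chains *Itga1* and *Itga2* had at most 5.10 CPM. *Itga1* had 5.10 and 4.06 CPM unloaded and 2.29 and 1.44 CPM loaded (-1.29, edgeR adjusted p = 0.162). *Itga2* had 3.24 and 2.54 CPM unloaded and 0.930 and 1.21 CPM loaded (-1.43, adjusted p = 0.151). *Mrc2*, the uptake receptor for cleaved collagen, had 72.0 and 78.1 CPM unloaded and 56.8 and 53.3 CPM loaded (-0.45, edgeR adjusted p = 0.129). Among proteases, *Mmp9* had 28.6 and 27.8 CPM unloaded and 11.8 and 11.0 CPM loaded (-1.31, edgeR adjusted p = 0.0137, DESeq2 adjusted p = 1.18e-08), and *Mmp13*, the collagenase, had 56.0 and 50.3 CPM unloaded and 34.0 and 31.3 CPM loaded (-0.70, adjusted p = 0.0575). *Mmp14* (0.21) and *Ctsk* (0.61) were higher at an unadjusted p under 0.05. Of the fibril-associated genes, *Fn1* and *Sparc* were level at 0.01 and 0.03, *Bgn* had -0.41 and *Tnc* 0.29.

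Among basement membrane partners, 8 of 11 tested genes (72.7%) had a negative log2 fold change, against 51.5% of all tested genes. The median was -0.29. *Lama5* had 39.5 and 39.3 CPM unloaded and 29.6 and 29.9 CPM loaded (-0.40, edgeR adjusted p = 0.139). *Hspg2*, which encodes perlecan, had 652 and 651 CPM unloaded and 528 and 536 CPM loaded (-0.29, edgeR adjusted p = 0.0837, DESeq2 adjusted p = 0.00504). *Agrn*, which encodes agrin, had 48.3 and 47.9 CPM unloaded and 36.4 and 36.3 CPM loaded (-0.41, edgeR adjusted p = 0.134). *Lamc1* (0.18) was higher and *Nid1* (-1.83, at most 1.98 CPM) lower at an unadjusted p under 0.05.

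**Figure D5:**
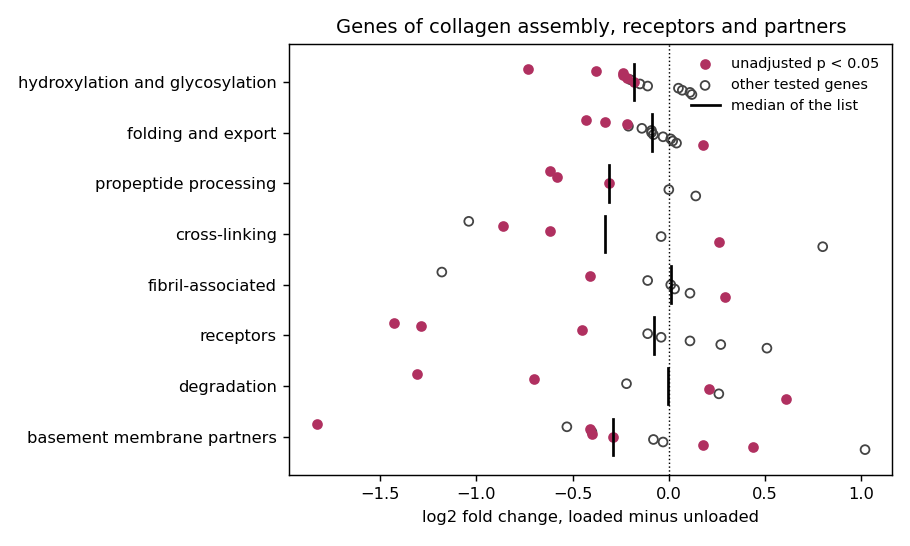
Log2 fold change of loaded over unloaded cells for the 69 tested genes of the 8 lists, with filled points for an unadjusted p under 0.05 in edgeR's quasi-likelihood test and a bar at the median of each list. Filled points lie to the left of 0 in the hydroxylation, propeptide and receptor lists and on both sides of 0 in the other 5 lists.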

How the data were processed

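After depletion of ribosomal RNA and read trimming, the authors aligned reads to mm10 with HISAT2 2.1.0, used StringTie 1.3.5 for assembly and made the deposited gene counts with its prepDE script, which converts coverage to whole numbers. The versions are from the submitters' processing notes. The counts are not normalized. The annotation release and strandedness are not given in the sources used here. All 55450 identifiers are in GENCODE M21 (GRCm38), which gave coordinates, exon lengths and coding sequences.

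The filter was filterByExpr of edgeR 4.0.16 (count minimum 10), and 16269 genes were tested with TMM factors and the quasi-likelihood F test in R 4.3.3, with Benjamini-Hochberg adjustment, after the procedure was tested on simulated data. The standard error is the log2 fold change divided by the square root of F, and the 95% interval uses its degrees of freedom. The threshold of 0.01 is the study's, which used DESeq2 1.32.0. Alternatives were DESeq2 1.42.0, limma-voom (limma 3.58.1), RLE and upper-quartile factors, 2 other filters, the replicate block, an adjusted p of 0.05 and leaving out each library. Full statistics are given for collagen genes with an unadjusted p under 0.05 or a mean of at least 10 CPM, and list genes are named at an unadjusted p under 0.05, at most 8 per list, apart from a gene that is not reported here. Other genes named were chosen after their values were seen. The members and lists were chosen with earlier results of these data known.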

Additional observations from a re-analysis of the deposited data

How the results depend on the processing

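No collagen gene passed the edgeR threshold under RLE or upper-quartile factors, either other filter, limma-voom, the replicate block or with any library left out. DESeq2 called 1 higher and 1 lower, and an adjusted p under 0.05 gave 1 lower. For the lists of collagen assembly and partner genes these settings gave 7 and 3 lower. Over all genes, DESeq2 called 170 higher and 193 lower, a threshold of 0.05 gave 55 and 92, at least 10 counts in every library gave 4 and 25, and no filter gave 0 and 0. Under a replicate block, the counts over all genes were also 0 and 0, and same-numbered libraries did not deviate together (correlation across genes of -0.057). Under the block the edgeR adjusted p was 0.123 for *Col16a1*, 0.0716 for *Tgm2*, 0.108 for *Loxl3* and 0.0301 for *Mmp9*. Leaving out 1 library gave 0 to 19 higher and 0 to 40 lower genes, with none left without loaded replicate 1 or 2. A single library left in a group is assumed there to vary like the others.

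The median log2 fold change of the collagen genes lay between -0.17 (without loaded replicate 2) and -0.11 when a library was left out. In the 16 collagen genes with full statistics, 186 of 192 values under the alternatives kept their direction. The adjusted p of 0.05 reuses the main estimates, so its values could not change direction. The other tests, factors, filters and the block used the same 4 libraries, so the share of 192 is no measure of robustness. The exceptions came from leaving out a library, in *Col5a1* (-0.04 to 0.01), *Col5a2* (-0.09 to 0.06), *Col6a3* (-0.02 to 0.25) and *Col8a1* (-0.05 to 0.06). The median of the 3 tested basement membrane genes, 0.32, moved to -0.19 without loaded replicate 2.

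With coding length in place of exon length, the chain ratios in unloaded cells were 0.661 for *Col1a1* to *Col1a2*, 0.952 for *Col4a1* to *Col4a2*, 0.628 for *Col5a1* to *Col5a2*, 0.251 for *Col5a3* to *Col5a1*, 3.55 for *Col6a1* to *Col6a2* and 0.0506 for *Col6a3* to *Col6a1*. The change of each ratio with loading does not depend on length. Of the 44 collagen genes, 15 were not tested, 8 of which had no count in any library.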

Other observations

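Of the macrophage markers, *Csf1r*, a receptor gene, stood at 1573 and 1584 CPM in unloaded and 1558 and 1562 CPM in loaded cells, while *Ptprc* and *Adgre1* were at 0 in 3 of the 4 libraries and at 0.124 CPM or less in the other library. *Cd68* had 5.58 and 4.65 CPM unloaded and 3.07 and 2.82 CPM loaded, and *Lyz2* stayed under 2 CPM.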
